A study of Homo sapiens with 16 samples.

Results

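eIF3 is the largest of the translation initiation factors, a complex of many subunits, and 10 of its genes (EIF3A to EIF3I and EIF3M) were chosen by name. Of these 10, the 9 genes EIF3A, EIF3B, EIF3D, EIF3E, EIF3F, EIF3G, EIF3H, EIF3I and EIF3M were listed in all 16 libraries, among 12587 genes listed in at least 1 library. EIF3C, which has a near-identical copy in the genome (EIF3CL), was not analysed here. All 9 measured genes passed the filter on low values in every comparison.

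As background, eIF3 binds the small ribosomal subunit, helps to load the initiator tRNA carried by eIF2, and links the resulting preinitiation complex to mRNA through the cap-binding factor eIF4F. Its subunits fall into a core found also in budding yeast (EIF3A, EIF3B, EIF3C, EIF3G and EIF3I) and an outer set that yeast lacks, and PCI and MPN domains of EIF3A, EIF3C and outer subunits build a scaffold like those of the proteasome lid and the COP9 signalosome. Several subunits are known to be raised or lowered in tumours, lung cancers among them, and some eIF3-bound mRNAs depend on the complex beyond general initiation.

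The series profiled ribosomes in 8 samples of A549, cells of a non-small cell lung tumour kept as a human line, each sample giving an input and a footprint library. Footprints are the mRNA pieces that ribosomes shield from RNase I, the input is fragmented total RNA, and their ratio is called translation efficiency (TE) here. METTL16 writes the m6A mark on RNA, and eIF4E2 is a cap-binding protein known as a brake on initiation. The series title ties METTL16 to translation through eIF4E2, which makes the initiation machinery itself of interest.

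The first group, sgM16, consists of 2 clones made with 1 guide RNA against METTL16, and its control is 1 sample of A549 with no treatment in its label. The design text names a non-targeting guide in that place instead, so guide delivery, cloning and METTL16 loss cannot be told apart. The second group, shM16, is 1 sample with a hairpin against METTL16, and its control is scramble hairpin replicate 1. The third group, sheIF4E2, is 2 samples with 1 hairpin against EIF4E2, and its control is scramble hairpin replicate 2. Every sample had fresh medium for 2 h and then 5 min of cycloheximide, an inhibitor that arrests ribosomes during elongation, at 100 µg/mL. The labels do not say that samples of a group came from separate cultures, apart from the sheIF4E2 pair, which the design text calls biological replicates. P-values therefore measure the spread between these samples, and each control is a single sample.

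Each group has its own table of TPM, reads divided by gene length and then by a library-wide sum. The listed genes held 44.6% to 49.8% of the TPM total in input libraries and 16.1% to 35.1% in footprint libraries. Where this share differs, listed TPM as a whole differ between the compared libraries. Read numbers recovered from the TPM steps summed to between 462611 and 699461 in input libraries and between 196995 and 876336 in footprint libraries. A subunit rested on 26 to 311 input reads and 23 to 644 footprint reads. METTL16 input stood at 6.80 and 6.94 TPM in the sgM16 clones, against 12.8 TPM in untreated cells. It stood at 3.50 TPM in shM16, against 11.1 TPM in scramble 1. EIF4E2 input stood at 7.69 and 3.57 TPM (21 and 10 reads) in sheIF4E2, against 21.4 TPM (49 reads) in scramble 2. Scramble 2 had the highest EIF4E2 input of the 8 samples, and scramble 1 had 8.47 TPM (19 reads). The size of the EIF4E2 knockdown therefore rests on scramble 2. Of 8 A549 markers, 7 were listed in all 8 inputs, and 8 of 10 markers of fibroblasts, leukocytes and endothelium were listed in none. Of the other markers, COL1A1 reached 32.0 TPM and LUM 4.87 TPM.

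The 9 genes lie on chromosomes 1 (EIF3I), 7 (EIF3B), 8 (EIF3E and EIF3H), 10 (EIF3A), 11 (EIF3F and EIF3M), 19 (EIF3G) and 22 (EIF3D). Their mRNA starts matter here because mRNAs that open with a C and a run of pyrimidines (TOP mRNAs) are a known class under joint translational control, in which ribosomal proteins and several eIF3 subunits are counted. RefSeq promoter entries of GRCh38.p14 matched 5 of the 9 genes, and the following lines give 10 bases before and 20 bases from the start that each entry uses, read 5′ to 3′. For EIF3B this start lies downstream of the gene's annotated first base, 2354086 on chromosome 7, so the window does not show its most upstream start. Capitals mark a run of at least 5 pyrimidines that opens with C at the start itself.
EIF3D (chr22:36529147-36529176, minus strand): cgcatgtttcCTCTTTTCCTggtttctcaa
EIF3F (chr11:7987327-7987356, plus strand): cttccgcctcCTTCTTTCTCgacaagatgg
EIF3M (chr11:32583821-32583850, plus strand): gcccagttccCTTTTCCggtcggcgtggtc
EIF3B (chr7:2354817-2354846, plus strand): tcgcacgcacatggctgggctgtagccgtc
EIF3I (chr1:32222397-32222426, plus strand): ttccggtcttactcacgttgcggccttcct
EIF3D, EIF3F and EIF3M opened with such a run, of 10, 10 and 7 bases, and the window of EIF3I did not, nor did that of EIF3B at the start its entry uses. Over all 35093 promoter entries, 4.07% had a C and at least 4 more pyrimidines at that start. In the 300-base promoter entries, read on both strands, CCGGAAGT was found for EIF3I alone among the 5 (4.14% of all entries). CCAAT was found for EIF3D, EIF3F and EIF3M (34.6% of all entries), and GGGCGG for EIF3B, EIF3D, EIF3I and EIF3M (45.0%). These are matches of letters and not measured sites.

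The 9 subunits spanned a wide range of levels. EIF3B (which carries an RNA-recognition motif and a beta propeller) and EIF3D (a subunit with cap-binding activity on some mRNAs) led in input, with medians of 71.0 and 59.3 TPM over the 8 samples. EIF3E (a PCI subunit that touches eIF4G) was last, with a median of 5.04 TPM. In footprints EIF3D led with 67.6 TPM, and EIF3F (an MPN subunit) and EIF3E were lowest with 6.94 and 9.45 TPM. Mean log2 input fell in the order EIF3B, EIF3D, EIF3G, EIF3H, EIF3I, EIF3M, EIF3A, EIF3F, EIF3E. Mean log2 footprint fell in the order EIF3D, EIF3B, EIF3H, EIF3I, EIF3A, EIF3M, EIF3G, EIF3E, EIF3F.

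Only 4 of 24 neighbouring pairs in these orders and that of TE differed beyond their spread over the 8 samples (exact sign-flip permutation test, two-sided, Benjamini-Hochberg over the 24 pairs). In input these were EIF3D above EIF3G by 0.37 ± 0.34 and EIF3F above EIF3E by 1.38 ± 0.73 on the log2(TPM + 1) scale (SD, n = 8, exact adjusted p = 0.0469). In footprints they were EIF3D above EIF3B by 0.42 ± 0.33 and EIF3G above EIF3E by 1.55 ± 0.38 (SD, n = 8, exact adjusted p = 0.0469). Each of the 4 held in 8 of 8 samples, which gives the smallest p that 8 samples allow (0.00781 before adjustment). The other neighbours in level, such as EIF3H and EIF3I, did not differ beyond their spread. The authors' gene lengths are not given, but the worth of a read implies a length for EIF3E of 5.08 times the median of the 9 genes and for EIF3F of 2.04 times. The depth behind EIF3E was not the lowest: its input rested on 39 to 122 reads with a median of 74.0, and that of EIF3G on 30 to 88 reads with a median of 67.0. In footprints EIF3E had more recovered reads than EIF3G (medians 175.5 and 58.5), so its lower TPM rests on the implied lengths. EIF3B likewise had more recovered footprint reads than EIF3D (medians 194 and 121.5). Their implied lengths were 1.22 and 0.513 times the median of the 9 genes, so the place of EIF3D above EIF3B rests on lengths too. Input reads of EIF3F and EIF3E had medians of 86.0 and 74.0, so the size of their gap in TPM depends on those lengths as well.

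**Figure D1:**
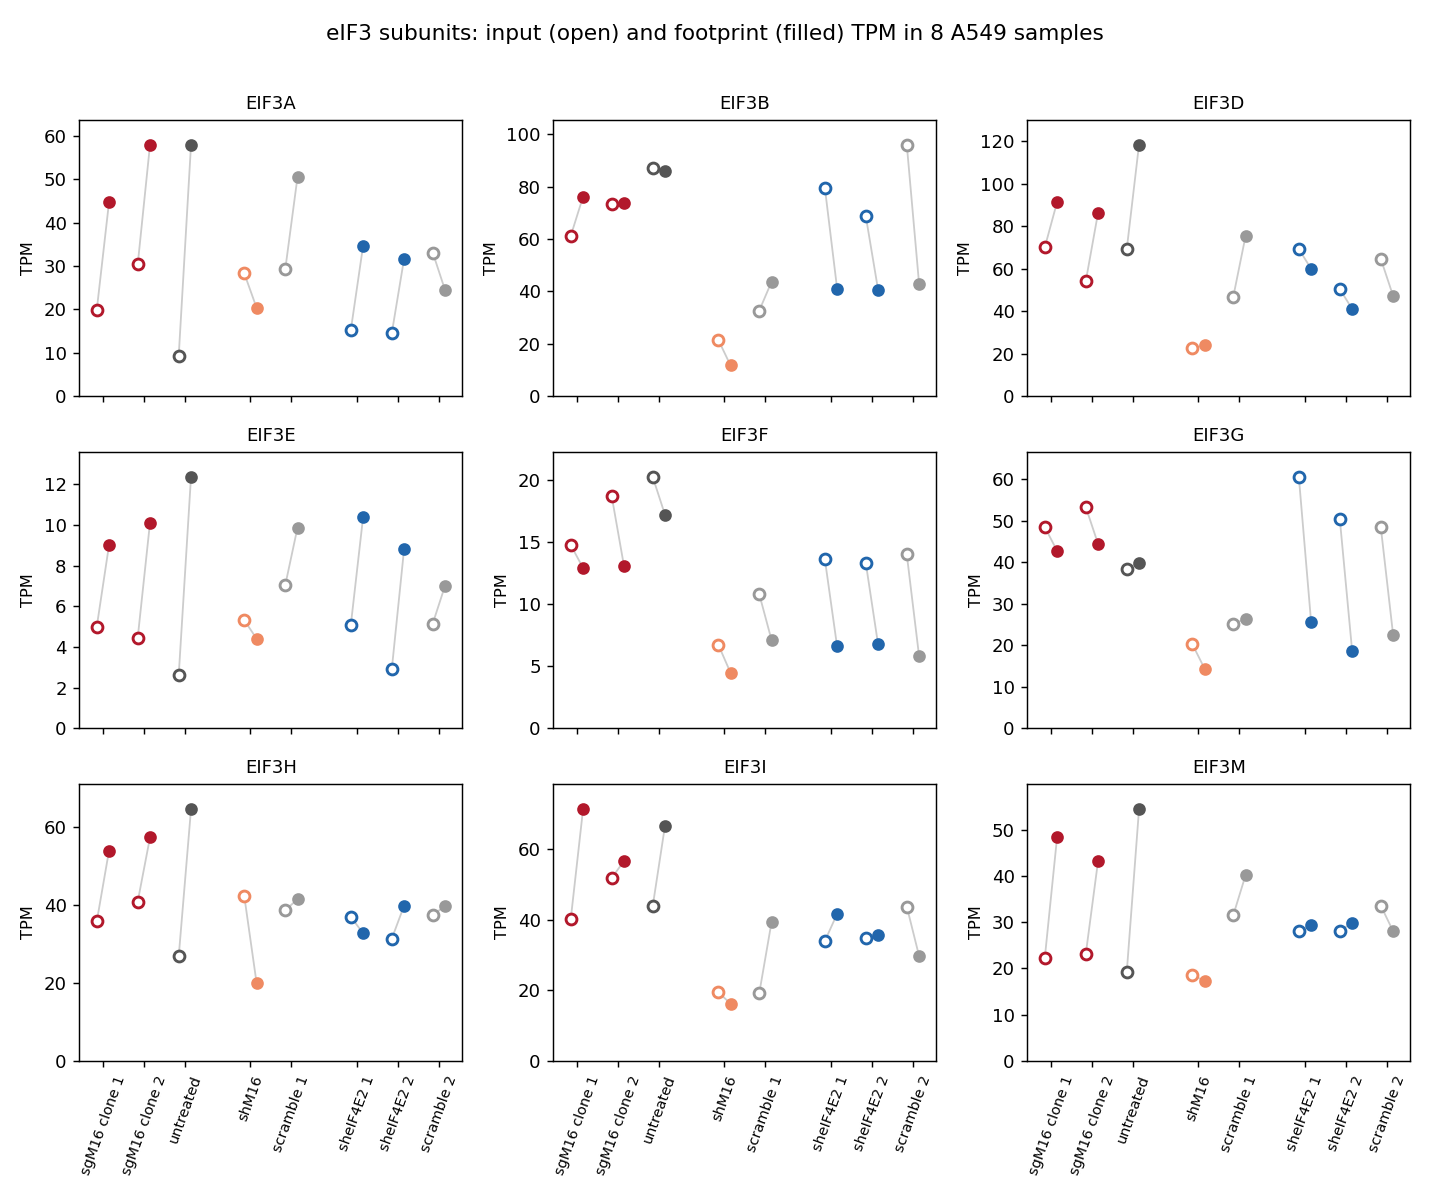
Input (open points) and footprint (filled points) TPM of the 9 eIF3 subunits in 8 A549 samples, 1 panel per gene with a linear axis from 0; a grey line joins the pair of libraries of 1 sample and colours mark the group. EIF3A input is lowest in untreated cells (9.27 TPM) and highest in scramble 2 (33.1 TPM), while EIF3H input spans only 1.58-fold.

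The subunits varied to different degrees across samples, as the plot of TPM by sample shows. EIF3H, an MPN subunit, had the steadiest input, from 26.8 to 42.2 TPM, a 1.58-fold range that was exceeded by 97.7% of 7510 genes listed throughout with reads in every library (median range 3.02-fold). EIF3M, a PCI subunit, followed with 18.6 to 33.5 TPM (1.80-fold, exceeded by 92.8% of genes). EIF3B ranged widest, over 4.47-fold in input (21.5 to 96.1 TPM) and 7.36-fold in footprints (11.7 to 86.2 TPM). EIF3A and EIF3E had the narrowest footprint ranges, 2.85-fold and 2.8-fold, which 91.2% and 92.2% of genes exceeded (median 5.22-fold). Ranges of this kind include counting error and differences between tables. EIF3H had 68 to 165 input reads, where the median per listed gene was 18 to 25 over the input libraries. EIF3E had 84 to 315 footprint reads, where that median was 7 to 30 over the footprint libraries. Counting error thus weighs more on most of the genes compared, and these shares were not matched for depth.

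A set of 5 subunits, EIF3B, EIF3D, EIF3F, EIF3G and EIF3I, had lower input in the pair shM16 and scramble 1 than in any of the other 6 samples, as had 31% of the 7510 genes. EIF3B had 21.5 TPM in shM16 and 32.7 TPM in scramble 1, against 61.2 to 96.1 TPM elsewhere. EIF3I, a beta-propeller subunit held by EIF3B, had 19.4 TPM in shM16 and 19.2 TPM in scramble 1, against 34.0 to 51.9 TPM elsewhere. EIF3A, EIF3E, EIF3H and EIF3M showed no such gap. The 9 inputs summed to 185 TPM in shM16 and 241 TPM in scramble 1, against 295 to 376 TPM in the other 6 samples. Hairpin and scramble share this feature, which sets their table apart, and tables cannot be told apart from the samples they hold.

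Median TE of the subunits lay above that of genes with at least 10 TPM in every input. The median log2 TE of the 9 was 0.58 and 0.48 in the sgM16 clones, against 0.77 in untreated cells. It was -0.46 in shM16, against 0.41 in scramble 1, and it was -0.17 and 0.03 in sheIF4E2, against -0.45 in scramble 2. Over 3105 genes with at least 10 TPM in every input, the medians were -0.48 and -0.65 in the sgM16 clones, against -0.29 in untreated cells. They were -1.46 in shM16, against -0.61 in scramble 1, and -1.04 and -1.16 in sheIF4E2, against -1.45 in scramble 2. The subunits' median was thus above that of these genes in each of the 8 samples and moved with it. The subunits were not held to the same limit: EIF3E input was 2.62 to 7.04 TPM, and EIF3F and EIF3A inputs fell to 6.75 and 9.27 TPM. The scramble samples, both of them controls, stood nearly as far apart as shM16 and scramble 1.

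EIF3A and EIF3E had the highest mean log2 TE, 0.83 and 0.81, and EIF3G and EIF3F the lowest, -0.56 and -0.61, but none of 8 neighbouring pairs in TE differed beyond the spread. The range of TE was 8.66-fold for EIF3A, which 22.6% of genes exceeded (median 4.94-fold), and 2.10-fold for EIF3F, which 98.0% exceeded. Depth was not matched here either. Among the 5 subunits with a start window, the 3 with a pyrimidine run had mean log2 TE of 0.44 (EIF3M), 0.20 (EIF3D) and -0.61 (EIF3F). The starts of EIF3A, EIF3E, EIF3G and EIF3H were not seen, so such starts and TE cannot be compared over the set. Genes outside the set whose centred log2 TE was most like the subunits' median over the 8 samples were CNP (a cyclic nucleotide phosphodiesterase), DUSP4 (a MAP kinase phosphatase), KARS1 (the lysyl-tRNA synthetase), RPL3 (a protein of the large ribosomal subunit) and EIF3K. Their mean absolute differences were 0.0749, 0.0784, 0.0821, 0.0826 and 0.0876, against a median of 0.347 over 3105 genes. The subunits themselves ranged between 0.192 for EIF3M and 0.512 for EIF3A.

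**Figure D2:**
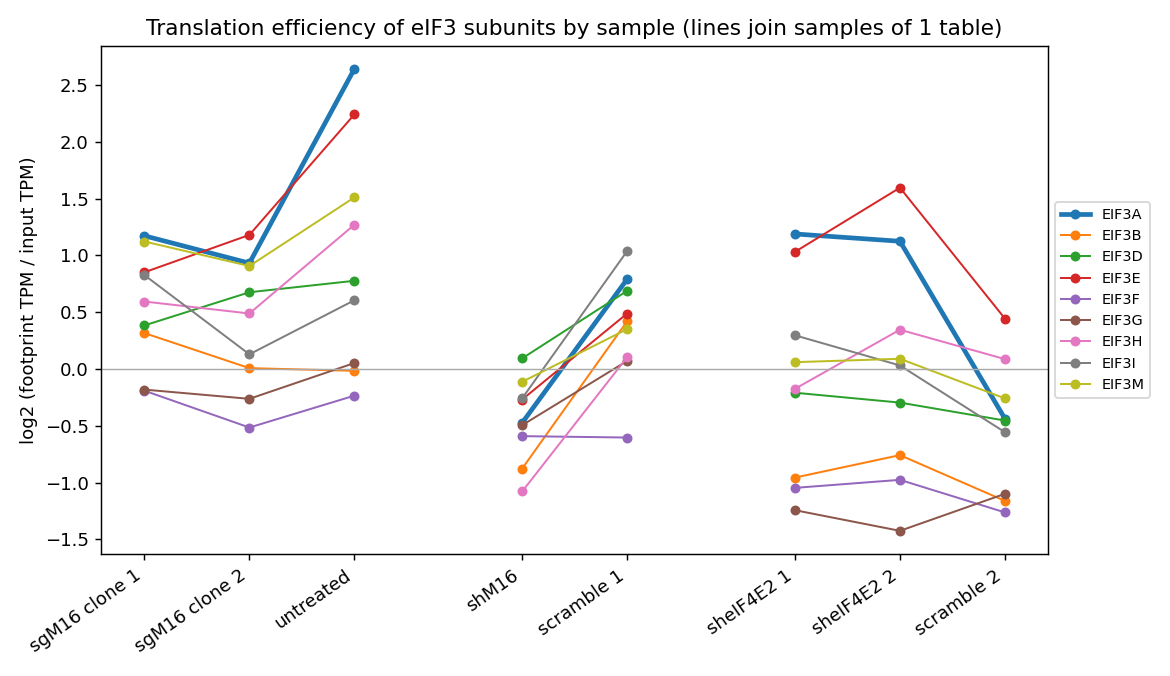
Log2 TE (footprint TPM over input TPM) of each eIF3 subunit in the 8 samples, treated samples left of their control, with lines joining samples of 1 table. EIF3A (thick line) is highest in untreated cells at a ratio of 6.24 and lowest in shM16 and scramble 2 at 0.720 and 0.739, the widest span of the 9.

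In the METTL16 guide clones no subunit passed the test. Nor did input of METTL16 itself (log2 change -0.81, SE 0.45, limma adjusted p = 0.551). A subunit without a call is therefore not shown to be unchanged. Among the subunits EIF3A, the large scaffold subunit that holds the core together, lay farthest from its control in input and TE. EIF3A input stood at 19.9 and 30.4 TPM (65 and 87 reads) in the clones, against 9.27 TPM (26 reads) in untreated cells. Its footprints stood at 44.8 and 58.0 TPM (294 and 154 reads) in the clones, against 57.8 TPM (183 reads) in untreated cells. Both clones were above the control in input, while in footprints clone 1 was below it and clone 2 level with it. The log2 change in input was 1.32 (SE 0.35, limma adjusted p = 0.314), larger than that of 97.1% of the 8505 genes tested.

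TE of EIF3A was 2.25 and 1.91 in the clones, against 6.24 in untreated cells, and 55.1% of genes likewise had lower TE in both clones. Its log2 change was -1.50 (SE 0.50, limma adjusted p = 0.561), and 5.55% of genes had a lower one. By reads, the clones had 2.67 times the control's input (exact 95% interval 1.75 to 4.22), 0.840 times its footprints (0.705 to 1.00) and 0.314 times its TE (0.192 to 0.499). These intervals cover counting error only. The 26 reads in untreated cells gave the lowest EIF3A input of the 8 samples, so the comparison turns on 1 library. In these bulk samples, fewer cells with an mRNA and less of it per cell cannot be told apart.

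EIF3E and EIF3H also had their lowest input of the 8 samples in untreated cells. EIF3E input stood at 5.00 and 4.47 TPM in the clones, against 2.62 TPM in untreated cells, and its footprints at 9.02 and 10.1 TPM in the clones, against 12.4 TPM in untreated cells. Input was higher in both clones (43.3% of genes) and footprints lower in both (52.9% of genes), so the changes ran in opposite directions. The log2 change of EIF3E was 0.66 in input (SE 0.41, limma adjusted p = 0.594) and -1.0 in TE (SE 0.57, limma adjusted p = 0.651).

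EIF3H input stood at 35.7 and 40.9 TPM in the clones, against 26.8 TPM in untreated cells, and its footprints at 53.9 and 57.3 TPM in the clones, against 64.5 TPM in untreated cells. Here too input was higher in both clones (43.3% of genes) and footprints lower in both (52.9% of genes). The log2 change of EIF3H was 0.50 in input (SE 0.28, limma adjusted p = 0.554) and -0.71 in TE (SE 0.40, limma adjusted p = 0.643). The exact intervals for the ratio of TE by reads were 0.275 to 0.620 for EIF3E and 0.426 to 0.833 for EIF3H.

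The remaining core subunits had smaller differences. EIF3B had 61.2 and 73.3 TPM of input in the clones, against 87.2 TPM in untreated cells, a log2 change of -0.38 (SE 0.27, limma adjusted p = 0.644). On TPM as deposited, EIF3B was the only subunit whose TE was higher in both clones, at 1.24 and 1.00, against 0.989 in untreated cells. EIF3G, an RNA-recognition subunit bound to EIF3B and EIF3I, was the only one whose footprints were higher in both clones before scaling, at 42.8 and 44.4 TPM, against 39.9 TPM in untreated cells. EIF3I was mixed in all 3 readouts. Among the outer subunits, EIF3D, EIF3F and EIF3M had log2 TE changes of -0.25, -0.11 and -0.48. Median-of-ratios scaling turned the TE changes of EIF3D, EIF3F, EIF3G and EIF3I positive, at 0.12, 0.24, 0.09 and 0.23.

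Counted over the 9 subunits, input was higher than the control in both clones for 5, where 43.3% of the 8505 genes tested were, and lower for 2 (29.6% of genes). Footprints were lower in both clones for 6 (52.9% of genes) and higher for 1 (18.4%). TE was lower in both clones for 6 (55.1% of genes) and higher for 1 (18%). Each count lay within 2 subunits of what these shares of 9 would be. Median log2 changes were 0.23 in input, -0.21 in footprints and -0.27 in TE, beside medians of 0.10, -0.23 and -0.33 over all genes. After median-of-ratios scaling, which removes the general shift, the medians of the subunits for footprints and TE changed sign, to 0.03 and 0.09. By limma 0 of 9 subunits had an adjusted p below 0.05 in any readout (0.0118% of genes in input, 0% in footprints and 0% in TE), and voom on the recovered reads called none of the 9 either. Without adjustment, p was below 0.05 for 1 subunit in input and in TE, EIF3A both times (10.8% and 8.57% of genes), and for 0 in footprints (7.11%).

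**Figure D3:**
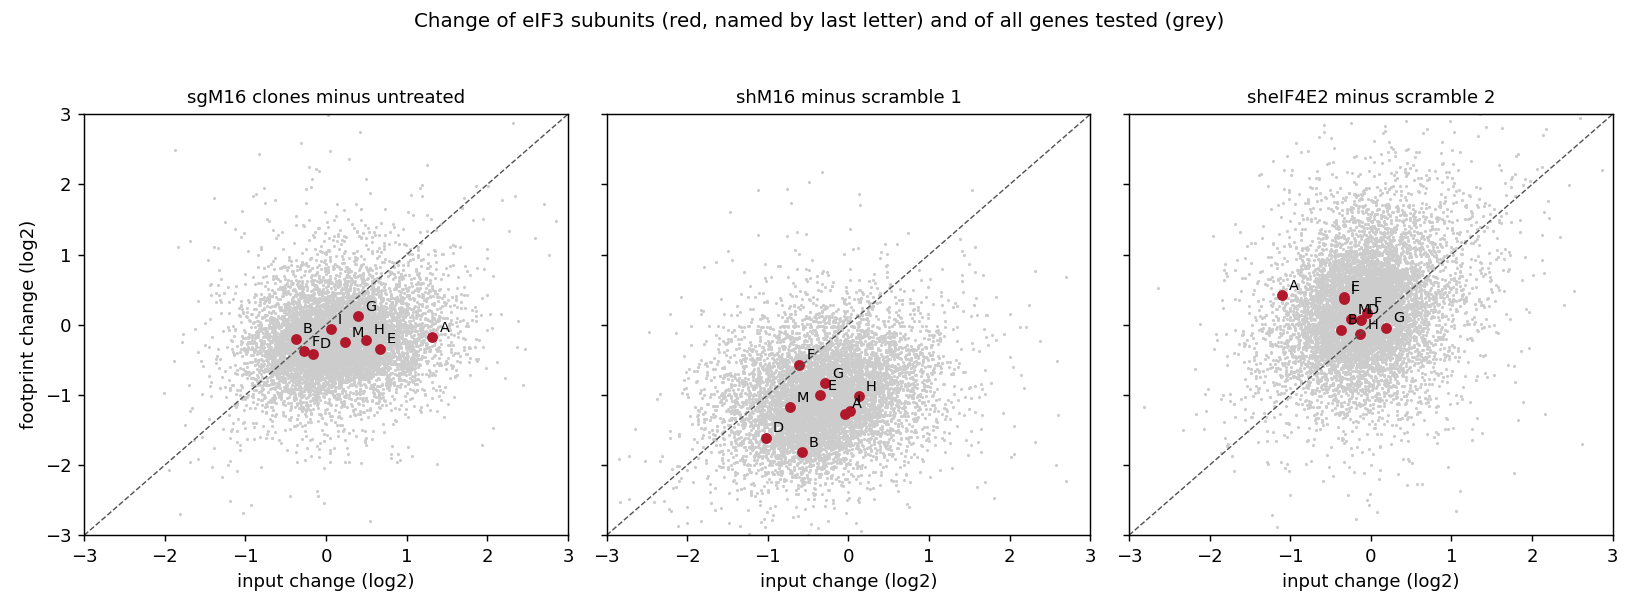
Log2 change in footprints against log2 change in input for each eIF3 subunit (red, with its last letter) and every gene tested (grey; genes beyond 3 log2 units are not drawn), with the sgM16 clones at left, shM16 in the middle and sheIF4E2 at right, each against its own control. The dashed line marks equal change; EIF3A stands at 1.32 in input for the sgM16 clones and at -1.10 for sheIF4E2, and most subunits stay within the grey cloud.

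The shM16 sample had fewer footprint TPM than its control for each of the 9 subunits, as did most genes. The listed genes together held 16.1% of the TPM total in shM16 footprints, against 27.55% in scramble 1 footprints. What lay behind this general difference was not tested. With 1 sample in each group these are values with no replicate check and no test. EIF3B footprints stood at 11.7 TPM (139 reads) in shM16, against 43.7 TPM (253 reads) in scramble 1, and EIF3D footprints at 24.0 TPM in shM16, against 75.3 TPM in scramble 1. At log2 changes of -1.81 and -1.61 they were the lowest of the set, with 8.06% and 15.3% of 8168 genes lower. EIF3F footprints stood at 4.48 TPM in shM16, against 7.12 TPM in scramble 1, a log2 change of -0.57 and the smallest of the 9. Reads gave EIF3B 0.268 times the control's footprints (exact 95% interval 0.216 to 0.331) and EIF3F 0.629 times (0.454 to 0.875).

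Input of EIF3D, at 22.5 TPM in shM16 against 46.8 TPM in scramble 1, had the lowest log2 change among the inputs, at -1.03. EIF3A, EIF3H and EIF3I inputs lay near the control, with log2 changes of -0.04, 0.13 and 0.02. With both scramble samples as control these were -0.13, 0.15 and -0.56, the EIF3B input change was -1.34, and the median of the subunits was -0.75. EIF3A had 28.3 TPM of input in shM16, against 29.2 TPM in scramble 1, and 20.4 TPM of footprints in shM16, against 50.6 TPM in scramble 1. Its TE of 0.720 in shM16, against 1.73 in scramble 1, gave a log2 change of -1.23. The ratio of EIF3A TE by reads was 0.416 (0.288 to 0.599) here and 0.314 in the guide clones. Its input was level in shM16 and higher in the clones. A lower TE change than that of EIF3A was seen in 23.6% of genes in shM16 and in 5.55% in the clones. After median-of-ratios scaling the TE change of EIF3A was -0.30 in shM16 and -1.14 in the clones.

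In shM16 footprints were lower for 9 of 9 subunits (95.2% of genes), and lower by at least 1 log2 unit for 7 (54.4% of genes). Input was lower for 7 (71.2% of genes) and higher for 2 (28.8%). TE was lower for 8 (84.3% of genes), by at least 1 log2 unit for 4 (36% of genes). Those 4 were EIF3A, EIF3B and EIF3I of the core and EIF3H, and EIF3F alone was not lower, at 0.664 in shM16 against 0.658 in scramble 1. This set rests on scramble 1: with both scramble samples as control, the TE changes of EIF3A, EIF3B and EIF3I were -0.63, -0.46 and -0.47, EIF3H at -1.14 alone was lower by 1 log2 unit, and EIF3G, at 0.03, had the other sign. The medians of the subunits were -0.35 in input, -1.17 in footprints and -0.66 in TE, beside -0.32, -1.06 and -0.76 over all genes. Scaling by median of ratios turned the medians for footprints and TE to 0.09 and 0.17. The 4 core subunits had a median TE change of -1.23 and the 5 outer ones -0.59, a description from 1 sample against 1, while with both scramble samples as control these medians were -0.47 and -0.15. In the guide clones the order was the other way, with -0.20 for the core and -0.48 for the outer subunits.

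**Figure D4:**
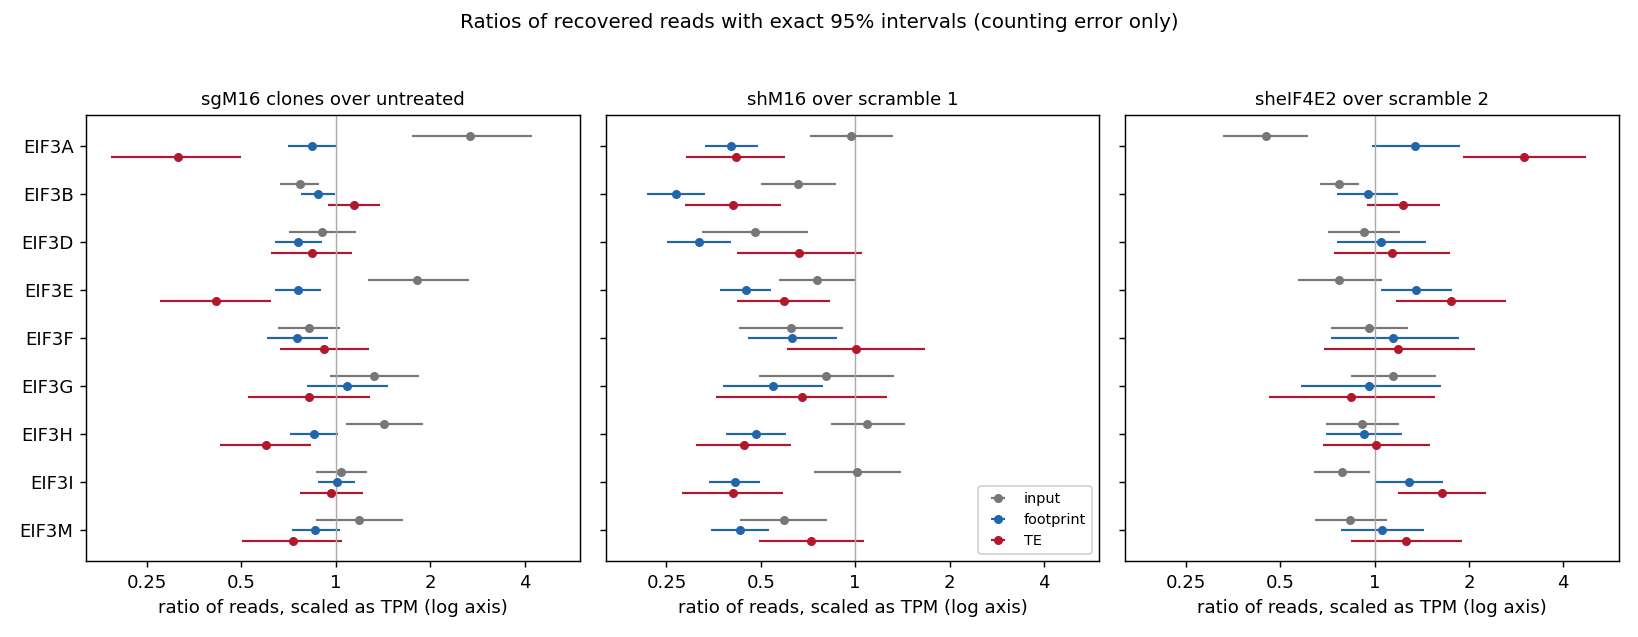
Ratio of recovered reads, scaled as TPM, for input (grey), footprints (blue) and TE (red) of each eIF3 subunit, treated samples pooled over their own control, on a log axis with exact 95% intervals that cover counting error only. The EIF3A intervals for input lie above 1 in the sgM16 clones (1.75 to 4.22), across 1 in shM16 (0.717 to 1.32) and below 1 in sheIF4E2 (0.329 to 0.614).

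In the eIF4E2 knockdown, input of EIF4E2 itself did not pass the test (log2 change -1.83, SE 0.60, limma adjusted p = 0.590). Among the subunits EIF3A again lay farthest from its control, now with less input. EIF3A input stood at 15.2 and 14.5 TPM (45 and 44 reads) in sheIF4E2, against 33.1 TPM (82 reads) in scramble 2. Its footprints stood at 34.7 and 31.7 TPM (69 and 79 reads) in sheIF4E2, against 24.4 TPM (55 reads) in scramble 2. Both samples were below the control in input (46% of genes) and above it in footprints (48% of genes). The log2 change in input was -1.10 (SE 0.29, limma adjusted p = 0.513), and 3.21% of the 8597 genes tested had a lower one. With voom on the recovered reads it was -1.15 and passed the threshold (adjusted p = 0.0114), among 267 genes called by that test where limma on TPM called 1.

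TE of EIF3A was 2.28 and 2.18 in sheIF4E2, against 0.739 in scramble 2, a log2 change of 1.53 (SE 0.41, limma adjusted p = 0.475) that exceeded those of 94.0% of genes. By reads, its input ratio was 0.449 (exact 95% interval 0.329 to 0.614), its footprint ratio 1.35 (0.984 to 1.88) and its TE ratio 3.01 (1.91 to 4.74). Scramble 2 had the highest EIF3A input of the 8 samples, as untreated cells had the lowest. Scramble 1 had 29.2 TPM of EIF3A input. With both scramble samples as control, the input change was -1.02, the footprint change -0.09, of the other sign, and the TE change 0.93.

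EIF3I and EIF3E followed EIF3A in TE. EIF3I had 34.0 and 34.8 TPM of input in sheIF4E2, against 43.8 TPM in scramble 2, and 41.7 and 35.6 TPM of footprints in sheIF4E2, against 29.8 TPM in scramble 2. Input was lower in both samples (46% of genes) and footprints higher in both (48% of genes). The log2 TE change was 0.70 (SE 0.38, limma adjusted p = 0.584). With both scramble samples as control that value was -0.07, of the other sign.

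EIF3E had 5.09 and 2.92 TPM of input in sheIF4E2, against 5.16 TPM in scramble 2, and 10.4 and 8.82 TPM of footprints in sheIF4E2, against 7.02 TPM in scramble 2. Its log2 TE change was 0.73 (SE 0.67, limma adjusted p = 0.745), with replicates spread between 0.52 and 0.94. EIF3G alone had lower TE in both samples, at 0.422 and 0.372 in sheIF4E2, against 0.467 in scramble 2. EIF3H, at 0.886 and 1.27 in sheIF4E2, lay on both sides of its control at 1.06. EIF3B, EIF3D, EIF3F and EIF3M had log2 TE changes between 0.20 and 0.32.

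Counted over the 9 subunits, input was lower than the control in both sheIF4E2 samples for 7 (46% of the 8597 genes tested) and higher for 1 (30.1%). Footprints were higher in both for 5 (48% of genes) and lower for 1 (22.6%). TE was higher in both for 7 (52.8% of genes) and lower for 1 (19.4%). The medians were -0.25 in input, 0.08 in footprints and 0.30 in TE, beside -0.10, 0.20 and 0.32 over all genes, and median-of-ratios scaling turned those for footprints and TE to -0.16 and -0.04. The counts of lower inputs and of higher TE rest on scramble 2: with both scramble samples as control the median input change was 0.10 and the median TE change -0.07, and EIF3B, EIF3D, EIF3F and EIF3I had the other sign in both readouts. By limma 0 of 9 subunits had an adjusted p below 0.05 in any readout (0.0116% of genes in input, 0.628% in footprints and 0% in TE). Voom called EIF3A in input and no other subunit. Without adjustment, p was below 0.05 for EIF3A in input (7.22% of genes) and TE (9.39% of genes) and for 0 subunits in footprints (16.4%).

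The eIF3 subunits outside the set were measured as well. EIF3J, a loosely attached subunit near the mRNA channel, had 16.6 and 21.4 TPM of input in the sgM16 clones, against 10.5 TPM in untreated cells, and 16.9 and 9.74 TPM in sheIF4E2, against 32.1 TPM in scramble 2. Like EIF3A it was above its control in both clones and below it in both knockdown samples. Both genes were set against the same single controls, and scramble 2 had the highest input of each among the 8 samples. The share of genes with this pattern was not counted. In shM16, where EIF3A input was level (-0.04), EIF3J input stood at 13.2 TPM, against 29.0 TPM in scramble 1 (log2 change -1.08). Its log2 TE change was -1.48 in the clones (SE 0.59, limma adjusted p = 0.561) and 0.97 in sheIF4E2 (SE 0.61, limma adjusted p = 0.636). EIF3K, a small subunit of the PCI scaffold, had the highest TPM of any subunit measured, between 105 and 238 TPM of input, and EIF3L, its partner, had between 41.5 and 74.5 TPM. None of the 3 passed the test in any readout.

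The factors that work beside eIF3 gave no calls in either fitted comparison. The 9 tested genes of the eIF2 and preinitiation list had a median log2 TE change of -0.78 in the sgM16 clones, lower in both clones for 8 of 9 (55.1% of genes), beside the all-gene median of -0.33. In shM16 its 10 tested genes had a median of -0.57, beside -0.76 over all genes, with all 10 lower than in scramble 1 (84.3% of genes). In sheIF4E2 the median of the list was 0.47, beside 0.32. TE of EIF2S1, the alpha subunit of eIF2 that stress kinases phosphorylate, changed by -1.24 in the sgM16 clones (SE 0.47, limma adjusted p = 0.561). It changed by 1.12 in sheIF4E2 (SE 0.50, limma adjusted p = 0.542). The 12 tested genes of the eIF4F list had median TE changes of -0.14 in the clones, -0.73 in shM16 and 0.26 in sheIF4E2. EIF4H, a cofactor of the helicase eIF4A, was at 1.62 in sheIF4E2 (SE 0.48, limma adjusted p = 0.475) and at -1.72 in shM16. Genes of these lists were named for a large TE change. The EIF4H values are against different controls: median log2 TE of genes with at least 10 TPM in every input was -1.45 in scramble 2 and -0.61 in scramble 1. The 5 genes of eIF2B, the exchange factor of eIF2, had medians of -0.26 in the clones, -0.54 in shM16 and 0.02 in sheIF4E2.

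The related PCI and MPN complexes held no called gene either. The 9 proteasome lid genes had median TE changes of -0.32 in the clones, -0.84 in shM16 and 0.52 in sheIF4E2. PSMD12, a PCI subunit of the lid, was at -1.12 in the clones (SE 0.47, limma adjusted p = 0.572), and PSMD7, an MPN subunit, at 1.37 in sheIF4E2 (SE 0.41, limma adjusted p = 0.475). The 9 COP9 signalosome genes had medians of -0.49 in the clones, -1.06 in shM16 and 0.06 in sheIF4E2. All-gene medians of TE were -0.33, -0.76 and 0.32 in these comparisons.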

How the data were processed

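Members and gene lists were chosen with earlier results of these data known. The authors deposited TPM per gene for footprint and input libraries in 3 tables. The submitters' processing notes name featureCounts 2.0.1, STAR 2.7.5c, cutadapt 2.8, Bowtie2 2.2.5 and Bowtie 1.3.0, and the build GRCh38. Gene lengths and strand settings: not given in the sources used here. Per the labels' protocols, ZnCl2 at 10 mM broke the input RNA, of which pieces of 40 to 60 nt were kept, while footprints were taken at 30 nt.

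The deposited TPM of a library are whole multiples of the worth of 1 read of a gene. This held for 11892 of the 11892 genes with 2 or more values above 0 (relative tolerance 1e-10), and gave reads that may lack a factor shared by all libraries of a gene. A gene with such a factor would have more reads than given, and narrower intervals. PCR copies cannot be separated from molecules.

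The test was limma 3.58.1 (R 4.3.3, eBayes with trend, two-sided) on log2(TPM + 1), whose fold changes understate those of low genes. Group means over both assays were fitted within each table, for genes averaging at least 1 TPM in both assays, with Benjamini-Hochberg adjustment over all of them (threshold 0.05). Its 2 residual degrees of freedom come from the 2 treated samples, so the single control is given their spread. SE is the model's. Changes in TE are footprint minus input changes. Permutation tests and exact intervals (Clopper-Pearson for reads, conditional odds ratio for TE) used scipy 1.17.1. Fits and read recovery were checked on simulated data. There the fit also called unchanged genes at more than the nominal rate, so counts of called genes over a whole table may be too high. It missed some of the genes that were given a change, so a gene without a call may still differ. Alternatives were a pseudocount of 0.1, no filter, median-of-ratios scaling, voom on recovered reads, leaving out each treated replicate, both scramble samples as controls, and a replicate block.

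Named were all members, the targeted genes, and, of each list, called genes or else up to 2 with the largest TE change per comparison at a mean of at least 10 TPM; of these the text gives examples. The likeness rule took 5 genes. Footprint and input deviations of a sample's libraries correlated at 0.147 (sgM16) and -0.0158 (sheIF4E2) across genes.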

Additional observations from a re-analysis of the deposited data

Results flagged for a closer look

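For 6 values of eIF3 subunits, both METTL16 guide clones moved one way from untreated cells while the METTL16 hairpin sample moved the other way from scramble 1. Because shM16 is 1 sample, the difference between guide and hairpin was not tested for any of them. Opposite directions of this kind were also seen in 40.6% of the 7503 genes tested in both comparisons for input, 17.9% for footprints and 22.7% for TE, against 4, 1 and 1 of the 9 subunits. In shM16 the medians over all genes lay at -0.32, -1.06 and -0.76 in these readouts. In input, EIF3A changed by 1.32 in the clones (1.02 and 1.61 by clone) and by -0.04 in shM16. EIF3E input changed by 0.66 in the clones (0.73 and 0.60) and by -0.35 in shM16. EIF3G input changed by 0.39 in the clones (0.33 and 0.46) and by -0.29 in shM16, and EIF3M input by 0.23 in the clones (0.21 and 0.26) and by -0.73 in shM16. In footprints, EIF3G changed by 0.13 in the clones (0.10 and 0.15) and by -0.83 in shM16. In TE, EIF3B changed by 0.18 in the clones (0.33 and 0.02) and by -1.23 in shM16. After median-of-ratios scaling 3 of the 6 ran the same way in guide clones and hairpin sample: EIF3A input (1.2 and 0.30), EIF3G input (0.27 and 0.047) and EIF3G footprints (0.36 and 0.42). No group held the 4 samples that a check for single outlying samples needs.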

How the results depend on the processing

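Of 477 recomputed values of single subunits, 422 kept their sign, among them 81 of 81 with a pseudocount of 0.1 and again with no filter. Of the 261 with a test in both fits, 260 kept their side of the threshold; shM16 and leave-one-out values have none. Voom brought EIF3A input in sheIF4E2 past the threshold and set EIF3H TE there to 0.013, the other sign; the cause was not tested. Compared groups share fewer than 2 replicate numbers, so these pair no samples; with the footprint and input libraries of each sample as a replicate block 18 of 18 TE values kept their call (lowest adjusted p = 0.306), with medians of -0.27 (sgM16) and 0.30 (sheIF4E2) and 0 genes called. Scaling by median of ratios subtracts the general shift between libraries, by its construction, and moved the medians of the subunits to 0.12, 0.027 and 0.089 (sgM16 input, footprint and TE), 0.092 and 0.17 (shM16 footprint and TE) and -0.16 and -0.040 (sheIF4E2 footprint and TE). It reversed, in the clones, EIF3I input (-0.063), the footprints of EIF3A (0.058), EIF3B (0.040), EIF3H (0.027) and EIF3I (0.17), and the TE of EIF3D (0.12), EIF3F (0.24), EIF3G (0.089) and EIF3I (0.23). In sheIF4E2 it reversed EIF3F input (0.045), the footprints of EIF3D (-0.17), EIF3F (-0.041) and EIF3M (-0.16), and the TE of EIF3B (-0.040), EIF3D (-0.14), EIF3F (-0.086) and EIF3M (-0.013). In shM16, with no test, it turned positive the inputs of EIF3A (0.30) and EIF3G (0.047), the footprints of EIF3A (0.0043), EIF3E (0.13), EIF3F (0.55), EIF3G (0.42), EIF3H (0.25), EIF3I (0.037) and EIF3M (0.092), and the TE of EIF3D (0.35), EIF3E (0.17), EIF3G (0.37) and EIF3M (0.48). With both scramble samples as controls, EIF3I input (-0.56) and EIF3G TE (0.032) changed sign in shM16, and sheIF4E2 medians were 0.10, -0.086 and -0.070 for input, footprint and TE. That choice reversed the inputs of EIF3B (0.39), EIF3D (0.10), EIF3F (0.12) and EIF3I (0.24), the footprints of EIF3A (-0.086), EIF3D (-0.26) and EIF3M (-0.18), and the TE of EIF3B (-0.48), EIF3D (-0.36), EIF3F (-0.076) and EIF3I (-0.070); the cause was not tested. Leaving out 1 clone left no test and gave subunit medians of 0.21 to 0.26 in input, -0.25 to -0.23 in footprints and -0.47 to -0.37 in TE. Leaving out 1 sheIF4E2 sample gave -0.32 to -0.036, 0.089 to 0.17 and 0.24 to 0.34. In the clones, values of opposite sign came from EIF3D (-0.35 to 0.018) and EIF3I (-0.12 to 0.24) in input, EIF3A (-0.36 to 0.0030) and EIF3I (-0.23 to 0.096) in footprints, and EIF3F (-0.26 to 0.045) and EIF3I (-0.47 to 0.22) in TE, the upper value being that of clone 1 except for EIF3I input and EIF3A footprints. In sheIF4E2 they came from EIF3D (-0.35 to 0.098) in input, EIF3D (-0.20 to 0.34), EIF3G (-0.26 to 0.17) and EIF3H (-0.27 to 0.0027) in footprints, and EIF3H (-0.25 to 0.25) in TE.

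Counts of called genes over the whole table moved widely; the cause was not tested. In sgM16 input, 1 gene was called, against 0 with a pseudocount of 0.1, no filter or scaling and 2 by voom, and in its footprints 0, against 3 with a pseudocount of 0.1. In sheIF4E2 input, 1 gene was called, against 0 with a pseudocount of 0.1, no filter or both scramble samples and 267 by voom. In its footprints 54 were called, against 165 with a pseudocount of 0.1, 1 with no filter, 22 after scaling, 31 by voom and 3 with both scramble samples, and in its TE 0, against 1 by voom. With a pseudocount of 0.1, 2, 2 and 0 neighbours in the orders by input, footprint and TE were separated, the same pairs as before. Depth limits EIF3A in untreated cells (26 reads) and EIF3G footprints in sheIF4E2 (23 and 25 reads) most.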
